A study of Drosophila melanogaster with 12 samples.

Results

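The interaction of cisplatin and TiO2 nanoparticles was measured in whole bodies of female Drosophila melanogaster, as the part of the response to both substances that the responses to each alone do not add up to on a log2 scale. All 12 of the 12 RNA-seq libraries of the series enter it, 3 in each of 4 groups, chosen by the treatment in their labels and by no measured value. The groups are flies given cisplatin together with TiO2 nanoparticles, flies given cisplatin, flies given TiO2 nanoparticles, and untreated control flies. All flies carry the Oregon genotype and spent 3 days on yeast medium coloured with a green food dye, made with water for controls and with the aqueous solutions for the treated groups. Each substance is labelled at 50 µg/ml in the treatment protocol and at 50 mg/ml in the sample titles, so the dose is uncertain by its unit. The age of the flies and the number of flies in a library are not stated in the labels, and nothing there says whether the 3 libraries of a group came from separate cultures. The p-values below therefore measure the spread between these libraries, which may be technical.

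Cisplatin is a platinum drug that crosslinks DNA and is toxic to dividing cells. TiO2 nanoparticles are a white pigment that is taken up with food, and particles of this kind are studied for oxidative stress and inflammation. In a whole female fly the ovary supplies a large part of the messenger RNA, beside muscle, cuticle, gut, fat body and head. In a design with each substance given alone and together, the interaction asks whether TiO2 does the same in flies that also take cisplatin as in flies that do not. It is the log2 difference of the combination from cisplatin alone, minus the log2 difference of TiO2 alone from control. A positive value means that the combination libraries lie above the level that the separate log2 responses add up to, which can come about with a combination level above, equal to or below control.

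The libraries held 26.8 to 46.7 M counts (M for mega), and 11 of them had between 12729 and 13743 genes with at least 1 count. Replicate 2 of the combination had 15438 such genes and held male transcripts. Acp36DE, a seminal fluid protein gene of the male accessory gland, stood at 348 CPM (counts per M library counts) there and at 0.192 CPM in the highest other library. betaTub85D, the testis tubulin, stood at 228 CPM there and at 0.503 CPM in the highest other library, and 40 male gland and testis transcripts summed to 2360 CPM there and to between 2.33 and 7.81 CPM in the other libraries. The counts, the lists and the named genes are therefore given with all 12 libraries and with the 11 that remain without this one; a value with no second figure is from 12 libraries.

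The spread within groups was unequal. The median over genes of the SD of log2 CPM was 0.62 in the combination, 0.22 there without replicate 2, 0.13 with cisplatin, 0.18 with TiO2 and 0.50 in control. The first principal component of log2 CPM held 66.0% of the variance, and its scores were -58.29, 140.19 and 8.66 in the combination, -50.57, -38.84 and -41.36 with cisplatin, -13.50, -25.52 and -46.62 with TiO2, and 106.31, 56.44 and -36.88 in control (replicates 1, 2 and 3). The cisplatin and TiO2 libraries lay at the low end, and the combination and control groups each held libraries at the low and at the high end. The summed level of sarcomere genes largely moved along with this order, but not every tissue list did. Digestive enzyme genes summed to 4340 CPM in combination replicate 2 and 12100 CPM in control replicate 2, both at the high end. Sarcomere genes, which encode the contractile apparatus of muscle, summed to 6040, 61700 and 20700 CPM in the combination, 5040, 9000 and 10300 CPM in cisplatin, 15100, 13900 and 8670 CPM in TiO2 alone, and 51500, 33400 and 7220 CPM in control. Combination replicates 2 and 3 and control replicates 1 and 2 were the highest 4 libraries, while combination replicate 1 and control replicate 3 lay among the single treatments. The part of these differences in the results below was not tested. In whole bodies, fewer cells of a type and less RNA per cell cannot be told apart.

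**Figure D1:**
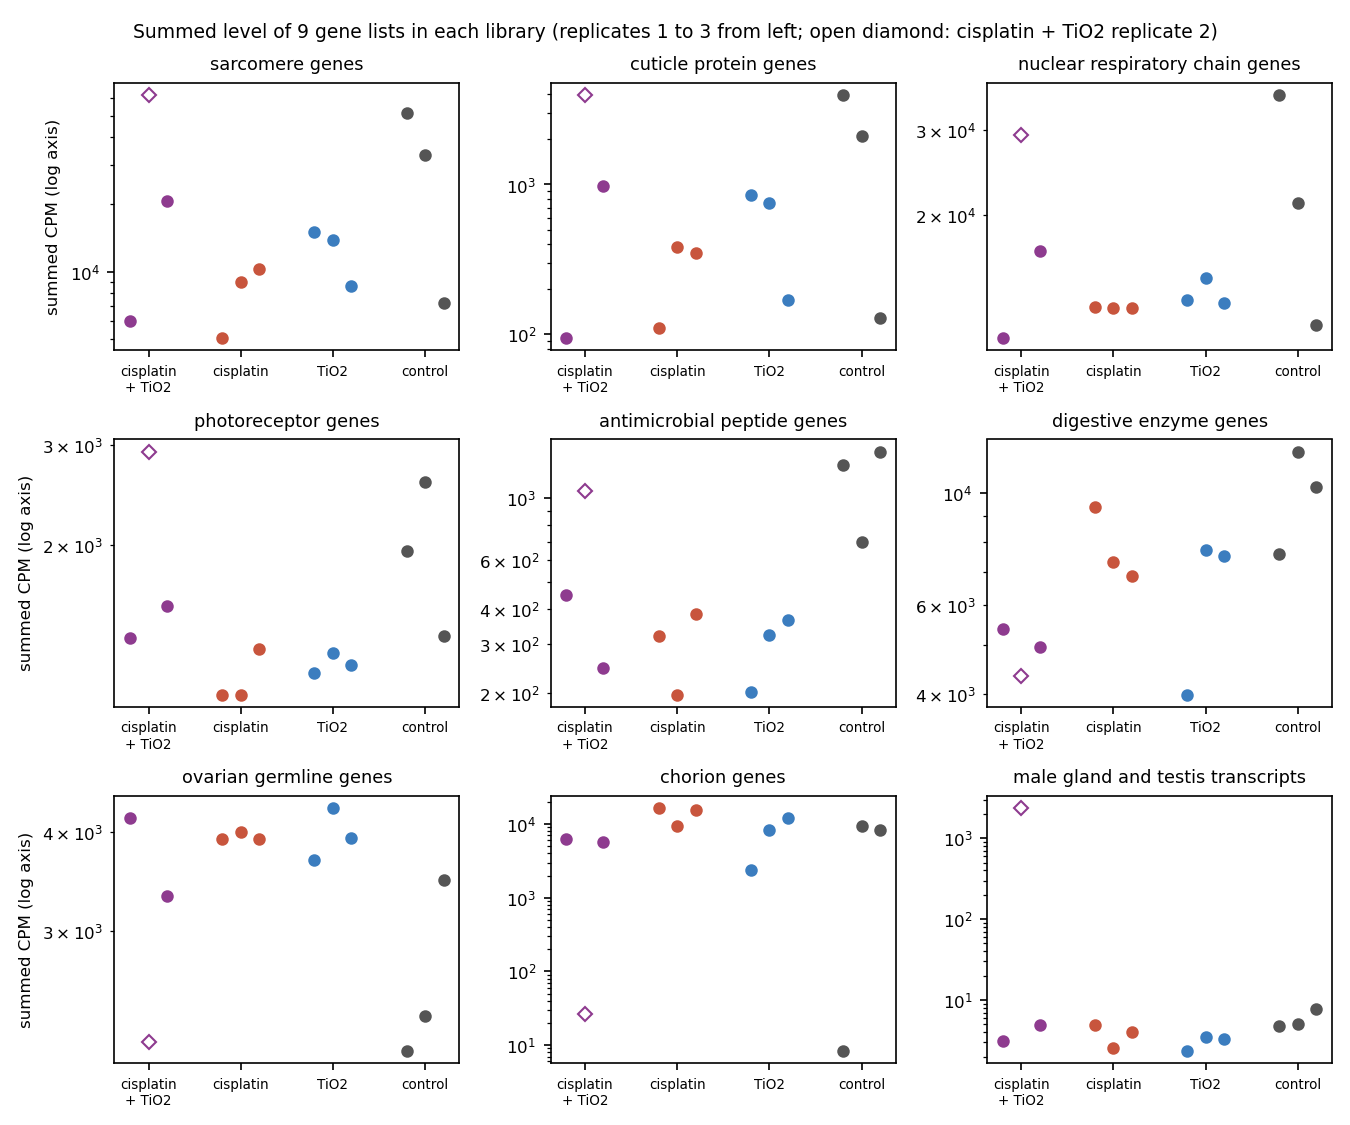
Summed CPM of 9 gene lists in each library on a log axis, with the combination, cisplatin, TiO2 and control groups from left to right and replicates 1 to 3 from left within each; the open diamond is combination replicate 2. Sarcomere genes reach 61700 and 51500 CPM in combination replicate 2 and control replicate 1, the libraries in which chorion genes are at 26.6 and 8.28 CPM, and male transcripts are at 2360 CPM in combination replicate 2 alone.

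By edgeR's quasi-likelihood test no interaction reached an adjusted p under 0.05, in 11060 genes tested with 12 libraries (0 genes, smallest Benjamini-Hochberg adjusted p 0.129) or in 11100 genes with 11 libraries (0 genes, smallest adjusted p 0.289). The unadjusted p was under 0.05 for 3502 genes (31.7%) with 12 libraries, 2951 of them positive (26.7%) and 551 negative (4.98%). With 11 libraries there were 1911 (17.2%), 1638 positive (14.8%) and 273 negative (2.46%). Of the 2951 positive genes, 1612 were also positive at that threshold with 11 libraries, which is 54.6% of the first list and 98.4% of the second. Of the 551 negative genes, 240 were shared, 43.6% of the first list and 87.9% of the second.

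DESeq2 called 1611 genes with 12 libraries (14.8% of the 10849 with an adjusted p), 1532 of them positive, and 151 with 11 libraries (1.42%). limma voom called 0 with either, with 2304 genes at an unadjusted p under 0.05, split into 1235 positive and 1069 negative with 12 libraries. The share of positive values among the genes at that threshold was thus 84.3% in edgeR, 77.1% in DESeq2 and 53.6% in limma voom, and with 11 libraries 85.7%, 80.0% and 65.3%. Over all genes tested, 51.8% of the values were positive and the median was 0.07 with 12 libraries, against 49.5% and -0.01 with 11.

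Leaving out 1 library at a time changed the count of calls from 0 for 2 libraries. Without combination replicate 1, edgeR called 2823 genes, 2496 positive and 327 negative. Without control replicate 3 it called 1752, 1568 positive and 184 negative. These are the libraries of their groups with the lowest sums of sarcomere genes, and with any of the other 10 left out the count was 0.

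**Figure D2:**
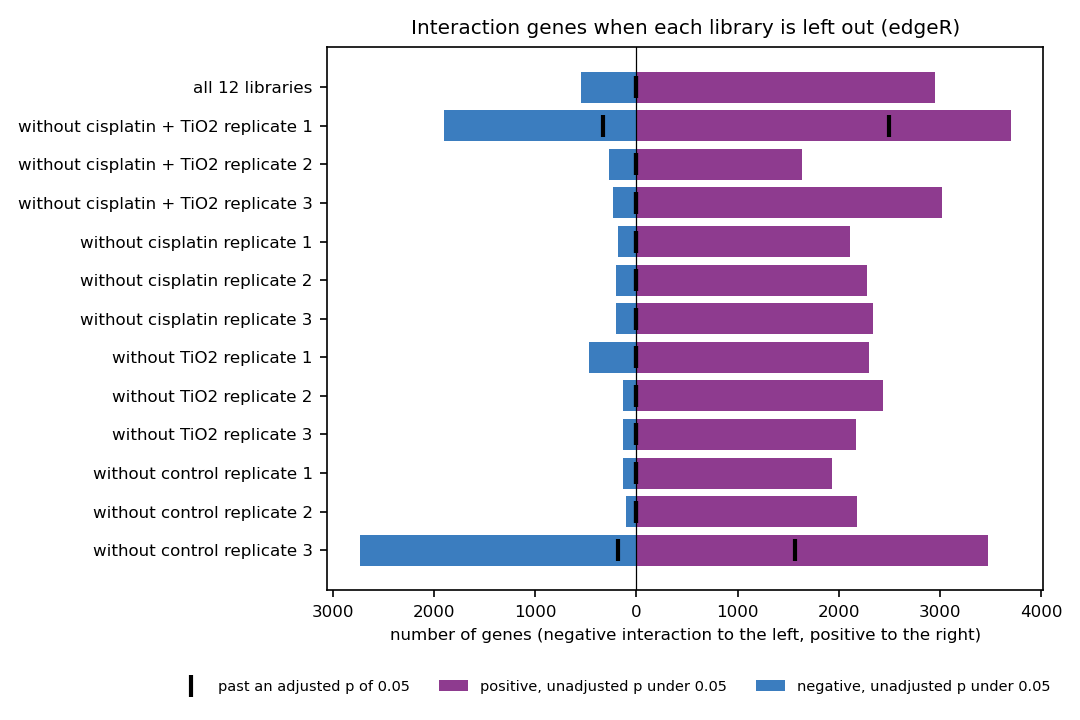
Number of genes with a positive (right) or negative (left) interaction at an unadjusted p under 0.05 when each library is left out in turn, with black marks for the number past an adjusted p of 0.05. The marks leave 0 without combination replicate 1 (2496 positive, 327 negative) and without control replicate 3 (1568 positive, 184 negative).

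The differences that make up the interaction are given side by side, since they share libraries. Of the genes so chosen these values are a description. Among the 2951 positive genes the median log2 difference was 1.19 for the combination against cisplatin and -1.03 for TiO2 against control, and, read the other way, 1.01 for the combination against TiO2 and -1.17 for cisplatin against control. The median interaction of these genes was 2.24, and their median difference between the combination and control was -0.11. Among the 1638 positive genes of the 11 libraries these medians were 0.50, -1.16, 0.32 and -1.27, with an interaction of 1.61 and a difference of -0.84 between the combination and control. Without replicate 2, the median positive gene was thus lower in each treated group than in control, and less far below control with both substances than the separate responses add up to. The 551 negative genes mirrored this at a smaller size, with medians of -0.32, 0.51, -0.30 and 0.53, an interaction of -0.84 and a difference of 0.21 between the combination and control. For the 273 negative genes of the 11 libraries these medians were -0.17, 0.57, -0.14 and 0.61, with an interaction of -0.75 and a difference of 0.41.

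Each of the 4 separate comparisons also gave 0 genes past an adjusted p of 0.05 in edgeR with 12 libraries. At an unadjusted p under 0.05 the combination against cisplatin had 1592 genes (14.4%), TiO2 against control 1824 (16.5%), the combination against TiO2 750 (6.78%) and cisplatin against control 2026 (18.3%). With 11 libraries these counts were 241 (2.17%), 3892 (35.1%), 139 (1.25%) and 4288 (38.6%), and TiO2 against control had 14 genes (0.126%) past the adjusted threshold, the other comparisons 0. Both comparisons with the combination thus had fewer genes without its replicate 2, and both single treatments against control had more. DESeq2 called 38 (0.365%), 288 (2.65%), 3 (0.0277%) and 204 genes (1.92%) in these comparisons with 12 libraries, and 7 (0.0631%), 1877 (17.6%), 1 (0.00902%) and 2442 (22.9%) with 11. When control replicate 3 was left out as well, edgeR called 6977 genes for TiO2 against control and 7068 for cisplatin against control.

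The 12 genes that led the positive interaction (smallest p in both fits, at least 5 CPM) had values from 1.06 to 4.00 with 12 libraries and from 0.96 to 3.55 with 11. None passed in edgeR (adjusted p 0.129 with 12 libraries and 0.289 with 11), and all 12 passed in DESeq2 with 12 libraries (adjusted p 0.000139 to 0.00468) and with 11 (3.1e-07 to 0.00294). Over all fits the adjusted p of these genes went up to 0.798. In all 12 the combination mean lay above the means of both single treatments, and in 9 it lay below the control mean, or in 11 without replicate 2. Replicate 2 was the highest combination library in all 12.

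Nmdmc encodes a mitochondrial enzyme of folate metabolism and lies on chromosome 3R from 9042508 to 9050555, where it shares bases with the immune factor gene Rel on the same strand. It stood at 128, 150 and 111 CPM in the combination, 60.8, 68.2 and 47.1 CPM in cisplatin, 53.5, 57.8 and 59.3 CPM in TiO2 alone, and 97.3, 71.1 and 71.3 CPM in control. All 3 combination libraries lay above every other library, and the single treatments lay below every control. The combination had a geometric mean of 129 CPM, where the separate responses add up to 41.7 CPM, and the interaction was 1.63 with a standard error of 0.27 (unadjusted p = 0.000102, edgeR), or 1.52 without combination replicate 2. Among these 12 genes it was 1 of the 3 with a combination mean above the control mean.

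Drat encodes an alcohol dehydrogenase-like protein named for its part in cell death under low oxygen and alcohol. It stood at 70.3, 162 and 76.8 CPM in the combination, 39.6, 55.2 and 34.4 CPM in cisplatin, 58.1, 34.4 and 57.2 CPM in TiO2 alone, and 102, 108 and 91.3 CPM in control. The combination and control libraries all lay above the single treatments. Its interaction was 2.27 with a standard error of 0.48, and 1.78 without replicate 2.

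Mp encodes Multiplexin, a basement membrane collagen. It stood at 36.7, 89.4 and 37.8 CPM in the combination, 14.1, 19.0 and 16.9 CPM in cisplatin, 24.1, 16.9 and 17.6 CPM in TiO2 alone, and 39.9, 49.8 and 24.7 CPM in control. Here the separation was close, since control replicate 3 lay just above TiO2 replicate 1, and the interaction of 2.68 fell to 2.13 without combination replicate 2.

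BomS6 and Irc, both immune genes, were among the leading 12. BomS6, a gene for a short secreted Bomanin peptide of the Toll response, stood at 29.6, 72.4 and 39.0 CPM in the combination, 14.5, 8.08 and 13.5 CPM in cisplatin, 20.4, 13.8 and 15.5 CPM in TiO2 alone, and 102, 77.9 and 23.8 CPM in control. Its interaction was the largest of the 12 at 4.00 with a standard error of 0.72, and 3.55 with 11 libraries. Irc, the immune-regulated catalase, had the smallest at 1.06 with a standard error of 0.21, and 0.96 with 11 libraries. It stood at 113, 125 and 91.9 CPM in the combination, 83.0, 85.6 and 84.2 CPM in cisplatin, 74.7, 75.6 and 89.7 CPM in TiO2 alone, and 121, 134 and 128 CPM in control. For both genes the 6 combination and control libraries lay above the 6 single-treatment libraries, for Irc with little room between combination replicate 3 and TiO2 replicate 3.

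Atet, an ABC transporter gene, and CREG, a gene for a small secreted glycoprotein, showed the same order. Atet stood at 51.9, 70.3 and 60.1 CPM in the combination, 45.3, 35.8 and 45.0 CPM in cisplatin, 36.8, 37.3 and 35.0 CPM in TiO2 alone, and 82.2, 84.9 and 54.8 CPM in control, with an interaction of 1.55, or 1.44 with 11 libraries. CREG had 1.89, or 1.57, and CG17684, for which no role is given here, had 2.19, or 1.85. In these 3 genes as well the combination and control libraries all lay above the single treatments, which made 8 of the 12 leading genes, against 0.714% of all genes tested (0.769% without combination replicate 2). The 12 genes were chosen by the p of the interaction, which favours this order, so these shares are a description and no test.

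The other 4 overlapped between groups. Obp57c encodes an odorant-binding protein and stood at 26.3, 50.5 and 31.3 CPM in the combination, 30.5, 27.6 and 30.2 CPM in cisplatin, 21.9, 23.2 and 23.5 CPM in TiO2 alone, and 72.6, 54.1 and 58.6 CPM in control. The controls lay above all other libraries, and without replicate 2 the combination lay close to the cisplatin libraries. Its interaction was 1.73, and 1.40 with 11 libraries. Ag5r, a gene for a secreted protein of the antigen 5 family, had an interaction of 2.26, CG6409 of 2.21 and CG14292 of 2.11, and with 11 libraries 1.82, 1.96 and 1.86. Their combination means of 51.5, 433 and 121 CPM were each below the control means of 115, 863 and 215 CPM.

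**Figure D3:**
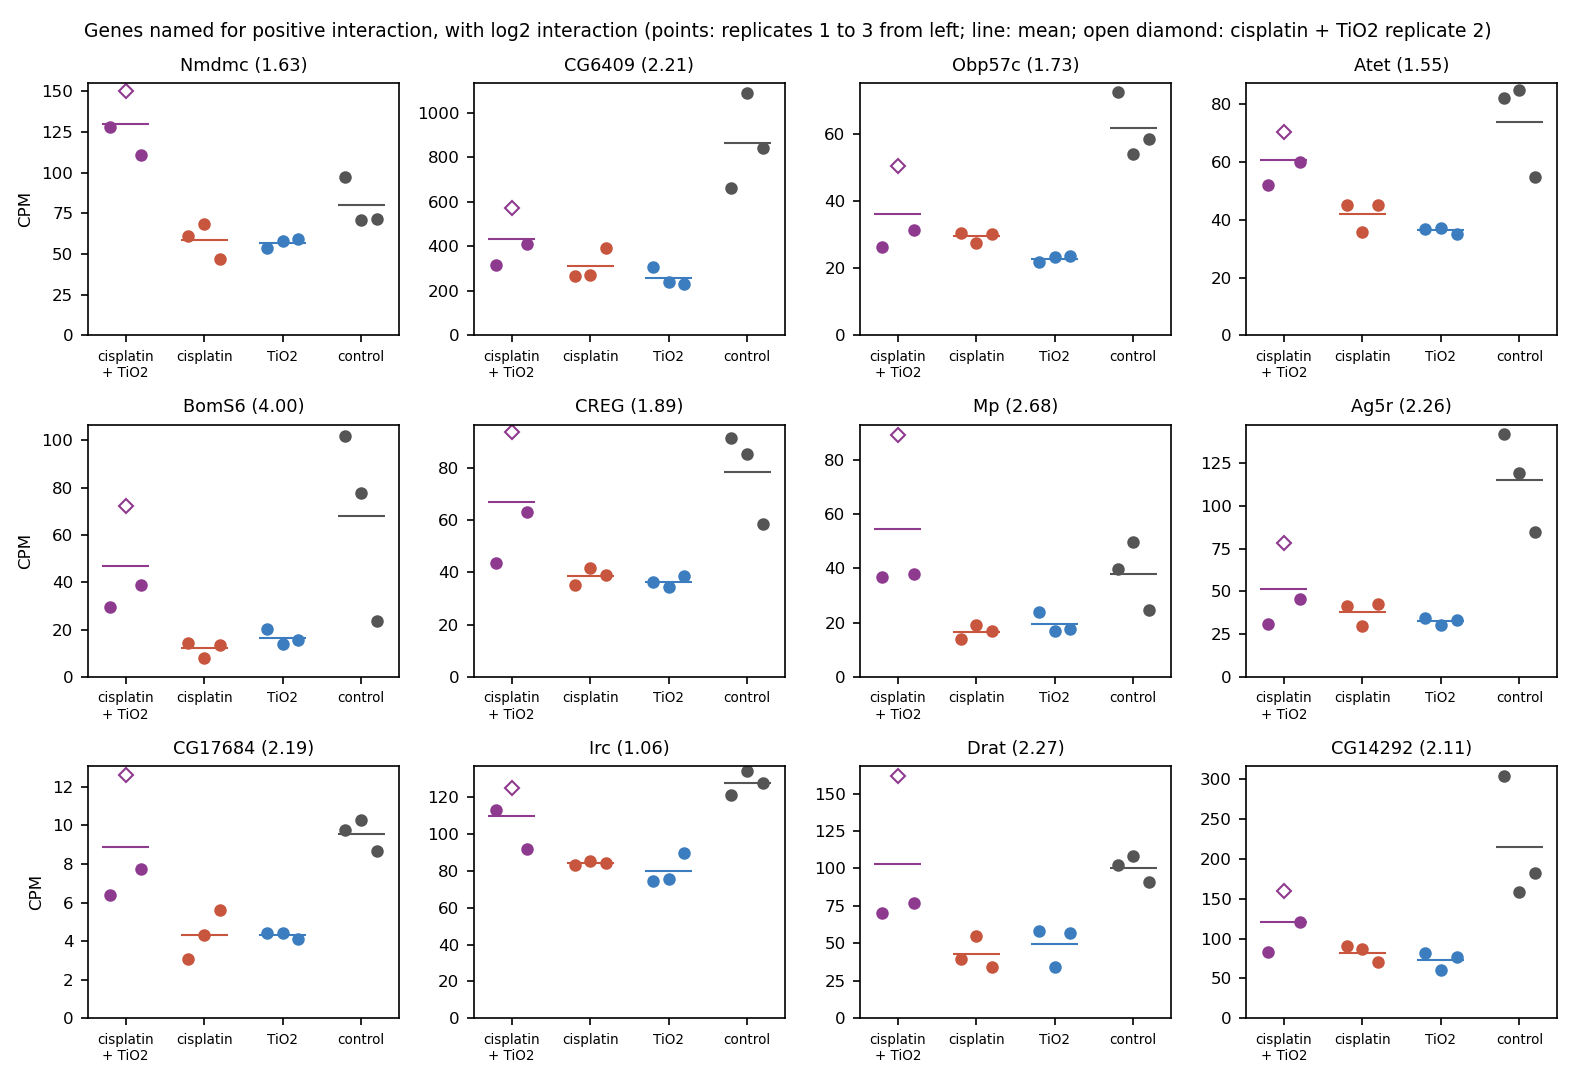
CPM of the 12 genes named for positive interaction in each library, with the combination, cisplatin, TiO2 and control groups from left to right; points are replicates 1 to 3, lines are means, and the open diamond is combination replicate 2. The open diamond is the highest combination point in all 12 panels, and in Nmdmc the combination lies above the control.

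The 12 genes that led the negative interaction had values from -2.89 to -0.84 with 12 libraries and from -2.73 to -0.69 with 11. None passed in edgeR (adjusted p 0.129 and 0.289). All 12 passed in DESeq2 with 12 libraries (adjusted p 0.00817 to 0.0437), and 3 of them with 11 (0.0058 to 0.12), with an adjusted p of up to 0.798 over all fits. In 11 of the 12 the combination mean lay below both single treatments, and replicate 2 was the lowest combination library in 11. For none were the combination and control libraries all below the single treatments, which held for 0.0723% of all genes tested (0.0814% with 11 libraries).

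The largest value was that of fit, a gene for a fat body satiety peptide that responds to protein in the food, on chromosome 3R from 21883924 to 21884454. It stood at 15.3, 9.22 and 11.7 CPM in the combination, 190, 76.8 and 126 CPM in cisplatin, 9.91, 69.1 and 37.6 CPM in TiO2 alone, and 38.3, 70.1 and 62.5 CPM in control. The combination libraries were low and close together, below every cisplatin and control library, and TiO2 replicate 1 was as low. The combination differed from cisplatin alone by -3.44 on the log2 scale with a standard error of 0.63 (unadjusted p = 0.000229, edgeR), while TiO2 differed from control by -0.55. The interaction was -2.89 with a standard error of 0.82, and -2.73 without combination replicate 2. The gene shares bases with asRNA:CR45046 on the same strand and with CG31465 on the other.

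CG8560 stood at 12.2, 25.6 and 24.5 CPM in the combination, 67.5, 44.8 and 54.6 CPM in cisplatin, 21.6, 40.6 and 54.4 CPM in TiO2 alone, and 16.1, 34.8 and 24.5 CPM in control. Its interaction of -2.05 was larger in size without combination replicate 2, at -2.23. tut, named tumorous testis and known for an RNA-binding protein of the male germ line, stood at 8.05, 6.61 and 9.32 CPM in the combination, 12.5, 14.8 and 8.65 CPM in cisplatin, 25.6, 15.1 and 13.8 CPM in TiO2 alone, and 7.47, 3.64 and 8.01 CPM in control. Its interaction was -2.10, or -1.98 with 11 libraries, and it was not raised in the library with male transcripts.

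osk encodes Oskar, the organiser of the germ plasm in the egg. It stood at 257, 150 and 216 CPM in the combination, 285, 271 and 253 CPM in cisplatin, 224, 315 and 263 CPM in TiO2 alone, and 194, 156 and 196 CPM in control. Combination replicate 2 lay below the controls and replicate 1 among the single treatments. The interaction was -0.93 with a standard error of 0.30, and -0.74 without replicate 2.

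aqz had the highest level of the 12, at 1680, 639 and 1220 CPM in the combination, 1250, 1080 and 1210 CPM in cisplatin, 1270, 1420 and 1400 CPM in TiO2 alone, and 614, 501 and 537 CPM in control. The controls lay below all other libraries. Its interaction was -1.30 with 12 libraries. The remaining 7 were Acph-1, a lysosomal acid phosphatase gene, at -1.10, Tango6 at -1.28, the pseudouridine synthase gene Pus10 at -1.41, PIG-O, for an enzyme of GPI anchor synthesis, at -0.84, CG11263 at -1.92, the anion exchanger gene Ae2 at -1.09, and CG7565 at -0.91. With 11 libraries these 7 values were -0.87, -1.01, -1.29, -0.69, -1.55, -0.84 and -0.75 in the same order.

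**Figure D4:**
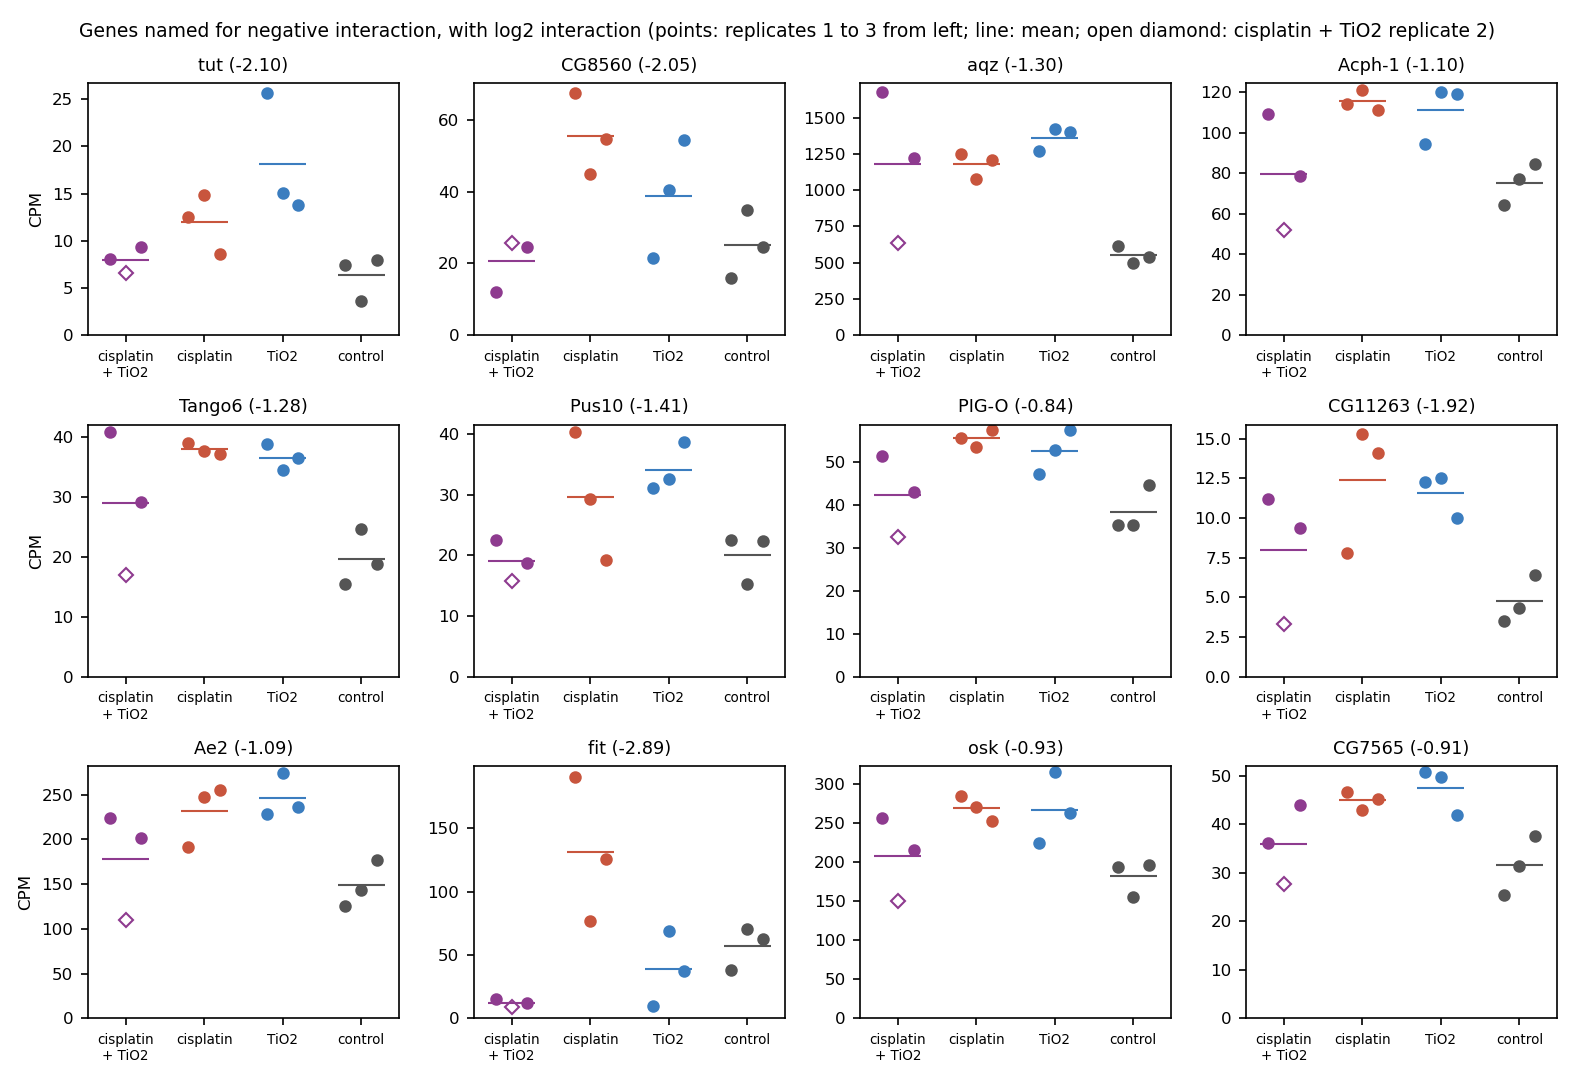
CPM of the 12 genes named for negative interaction in each library, drawn as for the positive genes. In fit the 3 combination points lie between 9.22 and 15.3 CPM, below all cisplatin and control points; the open diamond is the lowest combination point in every panel except CG8560.

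Antimicrobial peptide genes, the effectors of the humoral immune response, had positive values in 20 of 21 and a median interaction of 3.12, or 1.74 without combination replicate 2. Of these, 12 were positive and 0 negative at an unadjusted p under 0.05 with 12 libraries, and 5 and 0 with 11. The counts of this and every list below stand against 26.7% of all genes positive and 4.98% negative at that threshold with 12 libraries, and 14.8% and 2.46% with 11. The summed level of the antimicrobial peptide genes was 452, 1060 and 246 CPM in the combination, 320, 198 and 384 CPM in cisplatin, 202, 325 and 368 CPM in TiO2 alone, and 1320, 697 and 1470 CPM in control. The controls were high and the single treatments low, and of the combination only replicate 2 reached the range of the controls. BomS3, another Bomanin gene, stood at 166, 291 and 79.6 CPM in the combination, 66.3, 47.4 and 62.7 CPM in cisplatin, 64.2, 70.2 and 110 CPM in TiO2 alone, and 500, 177 and 86.1 CPM in control. Its interaction was 3.25, and 2.70 with 11 libraries. Drs, the gene of the antifungal peptide Drosomycin, had 1.19, and 1.24 with 11.

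Immune recognition and regulation genes had a median of 1.30, or 0.64 without combination replicate 2 and 0.74 without control replicate 1, with 7 of 19 positive at an unadjusted p under 0.05, or 5 with 11 libraries. At any p, 12 of the 19 values were positive and 7 negative, with either set of libraries. PGRP-LC, the peptidoglycan receptor that starts the Imd pathway, stood at 26.7, 53.3 and 23.7 CPM in the combination, 19.8, 18.4 and 22.4 CPM in cisplatin, 21.2, 20.7 and 22.5 CPM in TiO2 alone, and 51.7, 46.6 and 35.5 CPM in control. All combination and control libraries were above the single treatments, and the interaction was 1.83, or 1.37 with 11 libraries. PGRP-LA had 2.09, or 1.52 with 11, and PGRP-SA, a Toll pathway receptor, 2.54, or 1.44. Rel, the NF-kappaB factor of the Imd pathway, had 1.05, or 0.64, and it shares bases with Nmdmc. The 4 Turandot genes tested of 7, which encode secreted proteins induced by stress, were all positive with a median of 2.33, or 2.22 with 11 libraries. TotA stood at 5.57, 55.0 and 29.9 CPM in the combination, 9.04, 12.2 and 10.1 CPM in cisplatin, 18.6, 16.0 and 5.62 CPM in TiO2 alone, and 134, 26.3 and 15.6 CPM in control, a wide spread in the combination and control groups. Its interaction was 3.65, or 2.89 with 11 libraries. Hemocyte and melanization genes had a median of 1.20, or 0.60 without replicate 2, with 3 of 15 positive at an unadjusted p under 0.05, against 26.7% of all genes tested, and 0 with 11 libraries, against 14.8%. At any p, 9 of these 15 values were positive and 6 negative, with either set of libraries.

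Heat shock and chaperone genes had 10 of 20 positive at an unadjusted p under 0.05 with 12 libraries and 9 with 11, and 0 negative with either. At any p, 13 of the 20 values were positive and 7 negative, or 11 and 9 with 11 libraries. The median of the list was 1.11, or 1.02 with 11 libraries, and 0.67 and 0.66 without control replicates 1 and 2. Hsp68, a stress-inducible Hsp70 gene, stood at 159, 289 and 94.7 CPM in the combination, 61.6, 59.5 and 67.2 CPM in cisplatin, 126, 58.6 and 87.1 CPM in TiO2 alone, and 175, 312 and 96.7 CPM in control. The cisplatin libraries were low, and 1 TiO2 library reached the range of the combination. Its interaction was 2.63, and that of stv, a co-chaperone gene of the BAG family, was 2.32, with 2.12 and 1.73 in 11 libraries. Hsp67Bc and Hsp23, small heat shock protein genes, had 1.95 and 1.70, and these were not lower with 11 libraries (2.14 and 1.78). Hsp67Bc stood at 8.38, 3.37 and 2.37 CPM in the combination and 2.42, 2.82 and 2.49 CPM in cisplatin. It stood at 2.68, 1.78 and 2.57 CPM in TiO2 alone, and 6.89, 4.53 and 3.51 CPM in control. Combination replicate 3 lay below every cisplatin library, and the interaction fell as low as 1.21 with 1 library left out.

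DNA damage checkpoint and repair genes, the pathway that cisplatin adducts engage, had negative values in 31 of 33 with a median of -0.98, or -0.62 without combination replicate 2. Their summed level was 3840, 1540 and 3270 CPM in the combination and 3290, 3390 and 3470 CPM in cisplatin. It was 3610, 3350 and 3460 CPM in TiO2 alone, and 1470, 2150 and 3390 CPM in control. Combination replicate 2 and control replicates 1 and 2 were the low libraries, as in the ovarian germline list. At an unadjusted p under 0.05 only 1 gene of the repair list was negative and 1 positive with either set of libraries. The negative one was PolQ, a gene for an end-joining polymerase that acts on crosslinks, at -0.90, or -0.75 with 11 libraries. It stood at 40.0, 24.5 and 29.6 CPM in the combination, 41.9, 39.8 and 39.6 CPM in cisplatin, 29.0, 45.5 and 41.6 CPM in TiO2 alone, and 21.1, 26.5 and 32.3 CPM in control. The positive one was Xrp1, a stress-induced transcription factor gene, at 1.10, or 0.61 with 11 libraries. Its level was 318, 743 and 350 CPM in the combination, 253, 314 and 293 CPM in cisplatin, 301, 341 and 325 CPM in TiO2 alone, and 497, 445 and 321 CPM in control, so that combination replicate 2 stood out.

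Cell cycle genes were negative in 18 of 18 with a median of -1.28, or -0.81 without combination replicate 2 and -0.83 without control replicate 1, and 1 of them, E2f1, had an unadjusted p under 0.05 (-1.06, or -0.77 with 11 libraries). The summed level of the cell cycle list was 7420, 1470 and 5920 CPM in the combination, 6530, 6860 and 6950 CPM in cisplatin, 7220, 6530 and 6990 CPM in TiO2 alone, and 1980, 3250 and 6450 CPM in control. The low libraries were combination replicate 2 and control replicates 1 and 2, which were also low in the ovarian germline list. Apoptosis genes had 7 of 16 positive at an unadjusted p under 0.05 and 3 with 11 libraries, against 26.7% and 14.8% of all genes tested, with a median of 0.28, or 0.25. rpr, the gene of the death inducer Reaper, stood at 1.27, 12.6 and 3.69 CPM in the combination, 0.411, 0.194 and 0.334 CPM in cisplatin, 3.37, 0.338 and 0.335 CPM in TiO2 alone, and 5.64, 4.39 and 0.681 CPM in control. Its interaction was 5.59, or 4.35 with 11 libraries, at low levels and with 1 TiO2 library within the range of the combination.

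Xenobiotic detoxification genes, among them glutathione transferases and cytochrome P450 genes, had 16 of 47 positive and 1 negative at an unadjusted p under 0.05, and 6 and 0 with 11 libraries. Over all genes tested 26.7% were positive at that threshold, and 14.8% with 11 libraries. The median of the list was 0.83, or 0.58 without combination replicate 2. Cyp6g2 stood at 2.05, 3.67 and 2.71 CPM in the combination, 1.28, 1.30 and 1.64 CPM in cisplatin, 1.40, 1.23 and 1.90 CPM in TiO2 alone, and 3.04, 3.29 and 2.23 CPM in control. The combination and control libraries all lay above the single treatments, and the interaction was 1.92, or 1.68. GstE4, Cyp6a9 and Ugt37A1 had 2.75, 1.47 and 2.54, and with 11 libraries 2.40, 1.11 and 2.07.

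Antioxidant genes had a median of 0.18, or 0.04 with 11 libraries. Of 19, 4 were positive and 2 negative at an unadjusted p under 0.05, or 2 and 1 with 11, against 26.7% and 4.98% of all genes tested with 12 libraries. The sign of the median turned without TiO2 replicate 1 (-0.04). The peroxiredoxin gene Prx6c had 1.77, or 1.46, while cnc, the fly counterpart of the oxidative stress factor Nrf2, had -0.85, or -0.67. cnc stood at 397, 237 and 329 CPM in the combination, 376, 403 and 381 CPM in cisplatin, 367, 386 and 391 CPM in TiO2 alone, and 213, 236 and 316 CPM in control, and shares bases with fzo on the same strand.

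Metal handling genes had 4 of 18 positive and 0 negative at an unadjusted p under 0.05, with either set of libraries, against 26.7% of all genes positive with 12 and 14.8% with 11. At any p, 9 of the 18 values were positive and 9 negative, with either set. The median of the list was 0.23, or 0.10 with 11 libraries, 0.01 without control replicate 1 and 0.55 without TiO2 replicate 2, and it was -0.19 in limma voom with sample weights. MtnA, a metallothionein gene, stood at 324, 301 and 322 CPM in the combination, 230, 176 and 107 CPM in cisplatin, 102, 159 and 227 CPM in TiO2 alone, and 398, 312 and 152 CPM in control. The combination libraries lay close together above all single-treatment libraries, and the controls were spread from the highest value to within the single treatments. Its interaction was 1.71 with a standard error of 0.55, and 1.74 without replicate 2. MtnE had 2.27, or 1.48, and Fer1HCH, the ferritin heavy chain gene, 0.55, or 0.57.

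Folate and one-carbon genes, the list that holds Nmdmc, had 4 of 10 positive at an unadjusted p under 0.05 and 3 with 11 libraries, against 26.7% and 14.8% of all genes tested, with a median of 0.22, or 0.40 with 11. Shmt, for the enzyme that hands the serine carbon to folate, stood at 368, 466 and 411 CPM in the combination, 344, 333 and 333 CPM in cisplatin, 251, 309 and 315 CPM in TiO2 alone, and 444, 397 and 333 CPM in control. The combination libraries were above the single treatments, and control replicate 3 was within their range. Its interaction was 0.73, or 0.64 with 11 libraries, and that of Sardh, the sarcosine dehydrogenase gene, was 1.00, or 1.06.

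Nutrient and insulin signalling genes had 5 of 18 positive and 0 negative at an unadjusted p under 0.05, or 3 and 0 with 11 libraries, against 26.7% and 14.8% of all genes positive, with a median of 0.63, or 0.62 with 11 libraries. Thor, the gene of the translation repressor 4E-BP, stood at 175, 192 and 118 CPM in the combination, 115, 127 and 120 CPM in cisplatin, 105, 116 and 123 CPM in TiO2 alone, and 174, 146 and 172 CPM in control. Combination replicate 3 lay among the single treatments and the other combination libraries just above the controls. Its interaction was 0.94, or 0.79 with 11 libraries. Akh, the gene of the lipid-mobilising adipokinetic hormone, had 2.32, or 1.79, and REPTOR-BP, for a partner factor of the TORC1-controlled regulator REPTOR, had 0.90, or 1.01 with 11 libraries.

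Lipid synthesis and storage genes had 6 of 18 positive and 1 negative at an unadjusted p under 0.05, or 5 and 1 with 11 libraries, against 26.7% and 14.8% of all genes positive. Their median was 0.27, or 0.25 with 11 libraries. Lip4, a lipase gene, stood at 48.4, 68.5 and 61.0 CPM in the combination, 24.1, 30.1 and 23.2 CPM in cisplatin, 35.8, 27.4 and 24.2 CPM in TiO2 alone, and 36.2, 78.3 and 38.8 CPM in control. All combination libraries were above all single-treatment libraries by a clear margin, and control replicate 1 only just was. Its interaction was 2.01 with a standard error of 0.42, and 1.89 without replicate 2. Lpin had 0.55, or 0.50, and FASN2, a fatty acid synthase gene, 2.27, or 1.41.

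Genes of the nuclear respiratory chain, which encode the mitochondrial complexes of oxidative phosphorylation, were positive in all 66 tested of 87. An unadjusted p under 0.05 was reached by 54 with 12 libraries and 11 with 11, all positive, against 26.7% and 14.8% of all genes tested. The median was 1.44, or 0.93 without combination replicate 2 and 0.91 without control replicate 1. Their summed level was 11200, 29200 and 16900 CPM in the combination, 13000, 12900 and 12900 CPM in cisplatin, 13400, 14900 and 13200 CPM in TiO2 alone, and 35300, 21200 and 11900 CPM in control. The single treatments were nearly alike, and combination replicate 1 and control replicate 3 lay below all of them. Genes of the mitochondrial genome were positive in all 17 tested of 37, with 10 at an unadjusted p under 0.05, or 7 with 11 libraries, and a median of 1.26, or 1.08 with 11 and 0.76 without control replicate 1. They summed to 74600, 128000 and 91200 CPM in the combination and 187000, 85900 and 65700 CPM in control. The sums were 62600, 84600 and 75900 CPM in cisplatin, and 68500, 78900 and 67900 CPM in TiO2 alone. Combination replicate 1 and control replicate 3 thus lay among the single treatments. mt:srRNA, the small ribosomal RNA, stood at 62.8, 67.4 and 59.8 CPM in the combination, 34.8, 40.7 and 30.1 CPM in cisplatin, 60.2, 31.8 and 35.4 CPM in TiO2 alone, and 75.6, 47.1 and 46.2 CPM in control, with an interaction of 1.26, or 1.21 with 11 libraries. Cytoplasmic ribosomal protein genes had small values of 1 sign, positive in 84 of 86 with a median of 0.33, or 0.29 with 11 libraries and 0.21 without control replicate 1, and 8 at an unadjusted p under 0.05, or 2 with 11. Proteasome subunit genes were divided, with 17 positive and 18 negative values with 12 libraries. With 11 libraries 12 were positive and 23 negative, and the median was -0.05.

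Cuticle protein genes of the Cpr family had a median of 4.64, or 3.37 without combination replicate 2, with 32 of the 70 members passing the filter on low counts. A member that passed only through the libraries where it is high had to differ, so values over the genes that passed are a description of those genes. They summed to 94.4, 3930 and 981 CPM in the combination, 111, 381 and 351 CPM in cisplatin, 852, 755 and 169 CPM in TiO2 alone, and 3940, 2100 and 128 CPM in control. Combination replicate 1 and control replicate 3 were as low as the lowest single-treatment libraries. Larval serum protein genes, storage proteins of the fat body, had a median of 4.57, or 3.44 with 11 libraries, and cuticle tanning and pigment genes 2.34, or 1.45. Sarcomere genes had 19 of 20 positive at an unadjusted p under 0.05 and a median of 3.17, but 5 of 20 and 1.94 without combination replicate 2.

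Photoreceptor genes had 13 of 14 positive at an unadjusted p under 0.05, or 10 with 11 libraries, and a median of 2.03, or 1.42. Rh4, a rhodopsin gene for ultraviolet light, stood at 14.1, 38.3 and 16.2 CPM in the combination, 12.0, 8.75 and 14.7 CPM in cisplatin, 12.3, 11.1 and 10.3 CPM in TiO2 alone, and 33.3, 47.5 and 18.0 CPM in control. Combination replicate 2 and control replicates 1 and 2 were high, and control replicate 3 lay just above the remaining libraries. Its interaction was 2.50, or 1.91 with 11 libraries, and that of the arrestin gene Arr2 was 1.97, or 1.46. Of the odorant-binding protein genes, which are expressed in the antenna and other tissues of the head and body, 28 of 51 passed the filter, 19 were positive at an unadjusted p under 0.05 and the median was 1.80, or 11 and 1.07 with 11 libraries. Digestive enzyme genes of the gut had 2 of 47 positive and 0 negative at an unadjusted p under 0.05, or 2 and 1 with 11 libraries. Their median was 0.11, or 0.06 with 11 libraries, and its sign turned without TiO2 replicate 1 (-0.19). They summed to 5390, 4340 and 4950 CPM in the combination, 9390, 7310 and 6870 CPM in cisplatin, 3990, 7710 and 7510 CPM in TiO2 alone, and 7600, 12100 and 10300 CPM in control. Of the other lists, nephrocyte uptake genes had a median of 0.48, or 0.19 with 11 libraries, and ecdysone and juvenile hormone genes 0.70, or 0.30.

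**Figure D5:**
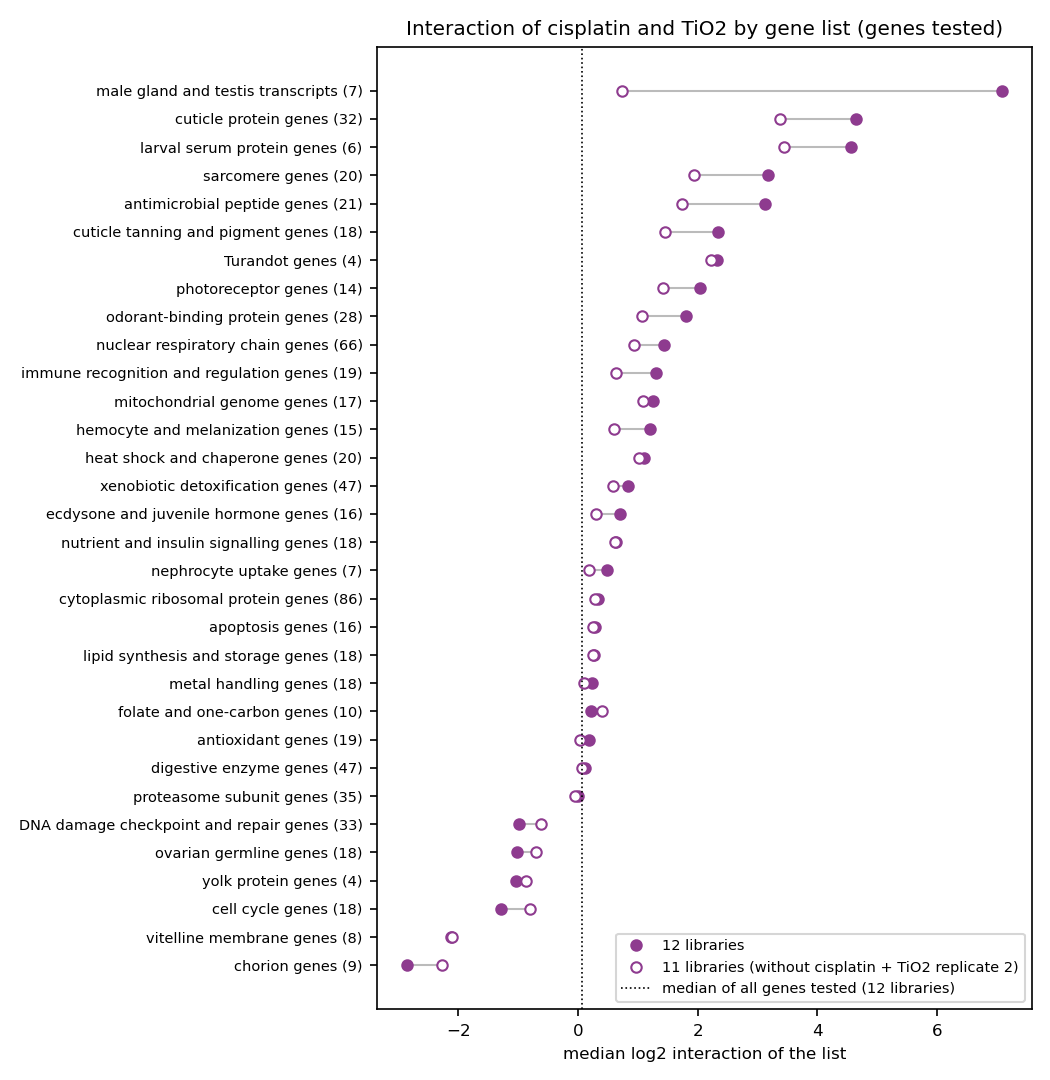
Median log2 interaction of each gene list (number of genes tested in brackets) with 12 libraries (filled) and with 11 libraries (open), and the median of all genes as a dotted line at 0.07. Cuticle protein genes lie at 4.64 and 3.37 and chorion genes at -2.86 and -2.28, and male transcripts lie at 7.09 with combination replicate 2 and at 0.74 without it.

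The ovary lists lay on the negative side. Chorion genes, which encode the eggshell and are made by follicle cells in the last stages of egg formation, were negative in 9 of 9 with a median of -2.86, or -2.28 without combination replicate 2, and 0 had an unadjusted p under 0.05. They summed to 6200, 26.6 and 5760 CPM in the combination, 16400, 9380 and 15400 CPM in cisplatin, 2380, 8260 and 12200 CPM in TiO2 alone, and 8.28, 9490 and 8190 CPM in control. Combination replicate 2 and control replicate 1 had almost none, and without control replicate 3 the median was -5.25. Vitelline membrane genes, the inner eggshell, were negative in 8 of 8 with a median of -2.13, or -2.11 with 11 libraries. Of these, 0 had an unadjusted p under 0.05 with either set of libraries. The median was -2.70 without TiO2 replicate 1 and -1.70 without TiO2 replicate 2. Their sums of 3620, 2580 and 1020 CPM in the combination were below those in cisplatin, at 8620, 6100 and 6580 CPM, and TiO2 had 366, 8110 and 7860 CPM against 5620, 3130 and 2070 CPM in control.

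Yolk protein genes and the yolk receptor gene yl were negative in 4 of 4 with a median of -1.04, or -0.87 with 11 libraries. yl stood at 1920, 837 and 1470 CPM in the combination, 2060, 1960 and 2080 CPM in cisplatin, 1500, 2170 and 1970 CPM in TiO2 alone, and 1000, 1210 and 1660 CPM in control, with an interaction of -1.07, or -0.80 with 11 libraries. Ovarian germline genes had negative values in 17 of 18 and a median of -1.02, or -0.71 without combination replicate 2. Of these, 6 of 18 were negative at an unadjusted p under 0.05 with 12 libraries and 6 with 11, against 4.98% and 2.46% of all genes tested. vas, the gene of the germline helicase Vasa, stood at 188, 80.6 and 141 CPM in the combination, 201, 193 and 191 CPM in cisplatin, 142, 235 and 200 CPM in TiO2 alone, and 108, 90.9 and 152 CPM in control. Its interaction was -1.23, and those of exu, which places messenger RNA in the egg, and of aub, a piRNA pathway gene, were -0.84 and -0.93, and with 11 libraries these 3 values were -0.96, -0.95 and -0.70.

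Of the 40 male gland and testis transcripts, 7 passed the filter on low counts, and their median was 7.09 with 12 libraries and 0.74 with 11. Of 113 genes on the Y chromosome, 4 passed the filter. The Y genes summed to 49.0 CPM in combination replicate 2, and to 3.67 and 3.78 CPM in the other combination libraries. In the remaining groups the Y sum lay between 2.68 and 5.21 CPM.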

How the data were processed

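Read counts of 17610 genes, not normalized, were deposited as a single table for the 12 libraries; per the file headers its layout is that of featureCounts. The submitters' processing notes name FastQC, Trimmomatic, BWA, SAMtools and HTSeq, with no versions. The genome build and the strand setting are not given in the sources used here, so reads of overlapping genes may be split or lost. Per the labels' protocols, Trizol was used for RNA and an Illumina stranded mRNA kit for the libraries. Of the genes, 17601 have the same start and end in the Ensembl annotation of BDGP6.54, which gave the symbols. The authors' tables of treatment against control were not used here.

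Genes were kept by filterByExpr, scaled by TMM and tested with edgeR 4.0.16 (R 4.3.3, glmQLFit and glmQLFTest, either direction, Benjamini-Hochberg, threshold 0.05) in a model of 4 group means. The same was done with 11 libraries, with filter and scaling recomputed. Interaction values and differences are log2. CPM use TMM-scaled library sizes, over the genes kept for single genes and over all genes for summed lists, with a prior count of 2 for log2 CPM. A count of 0 allows up to 3 counts, or 0.0642 to 0.112 CPM, for counting error only. Scripts were tested on simulated data.

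The genes named were the 12 in each direction with the smallest larger p of the fits with 12 and 11 libraries, a mean of at least 5 CPM and the same sign in both, and up to 4 members of each of 33 lists by the same rank; PolQ stands in the list by its synonym mus308. The members and lists were chosen with earlier results of these data known. Of the list symbols, 4 were not analysed here: Cyp6a2, EcI, nos and a symbol of the folate and one-carbon list. Alternatives were DESeq2 1.42.0, limma 3.58.1 (voom), other scalings and filters, a replicate block and leaving out each library. The groups share replicate numbers, and same-numbered libraries correlated in their deviations from the group means from -0.74 to 0.47, over 0.1 in 6 of 18 pairs, so the numbers were not taken to pair libraries.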

Additional observations from a re-analysis of the deposited data

How the results depend on the processing

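The count of genes with an interaction past the adjusted threshold depended on the tool and on single libraries. With 12 libraries it was 0 in edgeR and in limma voom, 1611 in DESeq2 and 7963 in limma voom with sample weights, and leaving out each library gave 0 to 2823 in edgeR. With 11 libraries DESeq2 gave 151 and edgeR 0. Leaving out a further library gave 0 to 5361 in edgeR, the highest without control replicate 3. The count at an unadjusted p under 0.05 with 12 libraries was 2304 in limma voom and 8214 with sample weights. It was 1911 to 6212 in edgeR when each of the 12 was left out. For the combination against cisplatin, TiO2 against control, the combination against TiO2 and cisplatin against control, DESeq2 called 38, 288, 3 and 204 genes and limma voom with sample weights 2618, 7905, 348 and 8136, and TiO2 against control ranged from 0 to 14 in edgeR when 1 of the 12 was left out (14 without combination replicate 2). Without combination replicate 2 and control replicate 3 together edgeR called 6977 genes for TiO2 against control and 7068 for cisplatin against control. The cause was not tested.

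With a replicate block, edgeR called 0 genes and had 2705 at an unadjusted p under 0.05, 2231 positive and 474 negative. Correlations with libraries of the other groups were averaged by replicate number. For 3 of 12 libraries the mean was highest for their own number. The split of positive against negative genes at that threshold was 2951 to 551 as reported, 1235 to 1069 in limma voom, 1576 to 1771 with a weight per group, 3958 to 4256 with sample weights, and 3478 to 2734 without control replicate 3. Upper quartile scaling moved the median of all genes from 0.07 to 0.40 and gave 3585 to 476. Of 2398 values of named genes under 23 alternatives 0 changed sign and 357 passed the adjusted threshold. A pass needs a setting that calls genes. Over all genes tested, limma voom with sample weights called 7963 of 11060 and DESeq2 1611 of 10849. In edgeR, 2823 of 11290 were called without combination replicate 1 and 1752 of 11289 without control replicate 3. The named genes were chosen by a small p and the same sign with 12 and 11 libraries. A sign that held, or a pass, is therefore no independent check. Of 725 list medians 67 moved by more than the spread between replicates, 12 of them under upper quartile scaling. At the depth of these libraries, levels under 0.0642 to 0.112 CPM could not be told from 0.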

Other observations

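In 79 genes (0.714% of those tested) the 6 combination and control libraries all lay above the 6 libraries of the single treatments, and in 8 (0.0723%) all lay below. Without combination replicate 2 there were 85 (0.769%) and 9 (0.0814%). The median interaction was 1.83 in the 79 genes, or 1.52 with 11 libraries, and 5 of them stood in a gene list. The genes named next were chosen after their values were seen. Xbp1, the transcription factor gene of the unfolded protein response, stood at 368 to 466 CPM in the combination, 314 to 348 CPM in the single treatments and 412 to 522 CPM in control, with an interaction of 0.85. Paics, for an enzyme of purine synthesis, stood at 332 to 402 CPM in the combination, 205 to 270 CPM in the single treatments and 285 to 461 CPM in control, with an interaction of 1.01. aay, for the last enzyme of serine synthesis, had 1.33, with 191 to 341 CPM in the combination, 125 to 146 CPM in the single treatments and 154 to 238 CPM in control.

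The neuropeptide genes Pdf, of the circadian clock neurons, and NPF, of brain and gut, were among the 79 at low levels. Pdf stood at 1.24 to 3.19 CPM in the combination, 0.707 to 1.23 CPM in the single treatments and 1.42 to 2.45 CPM in control. NPF stood at 2.27 to 4.58 CPM in the combination, 1.63 to 2.25 CPM in the single treatments and 2.72 to 4.72 CPM in control. Among the 8 genes on the other side, slif, an amino acid transporter gene, stood at 66.5 to 169 CPM in the combination, 185 to 200 CPM in the single treatments and 78.3 to 168 CPM in control, and mtSSB, for the protein that binds single strands of mitochondrial DNA, at 10.4 to 20.5 CPM in the combination, 21.0 to 23.8 CPM in the single treatments and 12.9 to 20.6 CPM in control. None of these genes passed an adjusted p of 0.05 in edgeR.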
